A study of Drosophila melanogaster with 9 samples.

Results

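Pairs of 10 kb bins that touch the telomere end of a chromosome arm were described in 2 lists of interacting bins from Hi-C, a method that joins and sequences DNA ends lying near each other in fixed nuclei. A pair was a member when at least 1 of its bins started in the outermost 1 Mb of listed sequence at the telomere end of its arm. These stretches were 2L 50001-1050000, 2R 20140001-21140000, 3L 100001-1100000, 3R 26900001-27900000 and X 20001-1020000. Members made up 5796 of the 82344 different pairs found in either list, 4637 of the 59303 pairs of the heat-shock list and 1824 of the 33978 pairs of the companion list.

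The heat-shock list covers 2 Hi-C libraries together from Kc167 cells, a Drosophila melanogaster line established from embryos, which were grown at 25 °C and heat-shocked at 37 °C for 20 min before fixation and HindIII digestion. The companion list is tied by no label used here to a cell, a treatment or a number of libraries, so a difference between the lists cannot be ascribed to heat. The title of the series names remodelling of chromosomal domains upon heat shock. The other 7 libraries, of ChIP and input DNA, were not analysed here.

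Fly telomeres are not built from the short repeats added by telomerase. They are maintained by the retrotransposons HeT-A, TART and TAHRE, followed inward by subtelomeric satellite arrays and then by unique sequence with genes. In embryonic nuclei of the fly the chromosomes often keep the Rabl orientation, with centromeres and telomeres toward opposite sides. The tip of 2L carries lethal (2) giant larvae, a tumour suppressor of cell polarity, and the tip of X carries yellow, a pigmentation gene, and the achaete-scute complex, which specifies neural precursors. The labels and file headers name no genome build for the lists. The gene table used here describes Release 6, whose last gene lies past the last listed base on 5 of 5 arms, so no gene was assigned to a bin and all positions are as deposited.

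The lists hold pairs within arms only, with a smallest distance of 20 kb, and carry no read counts. Depth and contact frequency are therefore unknown, and a pair that is not listed may still be in contact, below the limit of that list. Each kind of list exists once, so there is no replicate spread, no test between the lists was possible and no p-value is given. Intervals are 95% intervals that cover counting error alone, as if each pair were independent of its neighbours, which is not so. The authors' score, negative in every line and never above -2, ranks pairs within a list; whether both lists use 1 scale for it is unknown.

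Telomere ends had more pairs in the heat-shock list on every arm, and by a larger factor than the rest of the same arm. Over all arms the ratio of members was 2.54 (2.41 to 2.69), against 1.70 (1.68 to 1.72) for the other pairs. Arm 3R had 962 heat-shock and 280 companion members, a ratio of 3.44 (3.0 to 3.94), against 2.04 (1.99 to 2.10) for all other pairs of 3R. On 2R the heat-shock members numbered 932 and the companion members 291, a ratio of 3.20 (2.80 to 3.67), against 1.59 (1.54 to 1.64) for the other pairs. The X had the fewest members, 502 heat-shock against 185 companion pairs, a ratio of 2.71 (2.29 to 3.23), against 1.68 (1.62 to 1.74) elsewhere. The factor was smaller on the left arms of the autosomes. On 3L there were 997 heat-shock and 446 companion members, a ratio of 2.24 (2.0 to 2.51), against 1.59 (1.54 to 1.63). On 2L, which held the most members in both lists, there were 1244 heat-shock and 622 companion members, a ratio of 2.0 (1.82 to 2.21), against 1.56 (1.51 to 1.61).

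The heat-shock list is longer, which enters each of these ratios, so the telomere ends were also set against the remaining pairs by an odds ratio. List length cancels there only if the added pairs have the same make-up as the rest of the list. The remaining pairs include the centromere end, where ratios were low on 2R and 3L. No odds ratio was computed without that end, so its part in these values is unknown. The odds ratio was 2.02 (1.76 to 2.32) on 2R, 1.68 (1.47 to 1.93) on 3R, 1.62 (1.36 to 1.93) on X, 1.41 (1.25 to 1.59) on 3L and 1.28 (1.16 to 1.42) on 2L. The intervals of 2L and 3L lay wholly below that of 2R, while those of 3R and X overlapped that of 2R. Because pairs over 1 to 5 Mb apart are more frequent in the heat-shock list as a whole, the comparison was repeated within arm and distance band. The Mantel-Haenszel odds ratio over 30 strata was 1.55 (1.46 to 1.64), against 1.50 (1.41 to 1.58) without strata. The heat-shock list was also shortened from its weak end to the length of the companion list. The pair ratios were then 1.13 on 2L, 1.37 on 3L, 1.54 on X, 1.92 on 3R and 1.95 on 2R. The ratio of the whole lists is 1 there by construction, but that of a single arm need not be. Ratios of the other pairs of each arm were not computed at equal length. In the full lists that ratio was highest on 3R, at 2.04. The Mantel-Haenszel odds ratio at equal length was 1.65 (1.55 to 1.76).

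**Figure D1:**
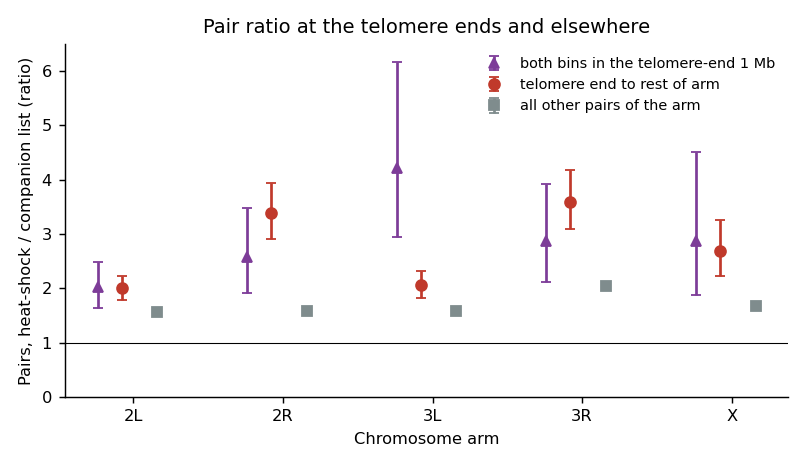
Number of pairs in the heat-shock list divided by the number in the companion list (y axis), by arm, for pairs with both bins in the telomere-end 1 Mb (triangles), pairs joining it to the rest of the arm (circles) and all other pairs of the arm (squares); bars are 95% counting intervals. The telomere-end symbols lie above the square of the same arm on all 5 arms, from 2.0 against 1.56 on 2L to 3.59 against 2.04 on 3R for the joining pairs.

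Seen along the arms, the telomere end was the 1 Mb window with the highest ratio on 3 of 5 arms. Of all 116 full windows of 1 Mb, counted inward from the outermost listed bin, 41.4% had a ratio over 2, and of the telomere-end windows 4 of 5 did, while 2L stood at 2.0. The windows of 3R and 2R ranked 1 and 2 of all 116, that of X ranked 8, that of 3L 25 and that of 2L 49. Within their own arms 3R, 2R and X ranked first, 2L ranked 5 of 22 and 3L ranked 7 of 24. High ratios were not confined to the tips, since windows 21 to 22 Mb inward reached 3.02 (2.71 to 3.36) on 3R and 2.99 (2.67 to 3.36) on 3L. On 2R and 3L the lowest full window lay near the centromere end. It had 2154 heat-shock and 1790 companion pairs on 2R, and 1332 against 1483 on 3L. On 2L, 3R and X it lay farther from that end. Median windows had ratios of 1.784 on 2L, 1.954 on 2R, 1.67 on 3L, 2.096 on 3R and 1.715 on X. Each median lay below the telomere-end window but above the ratio of the other pairs of its arm.

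**Figure D2:**
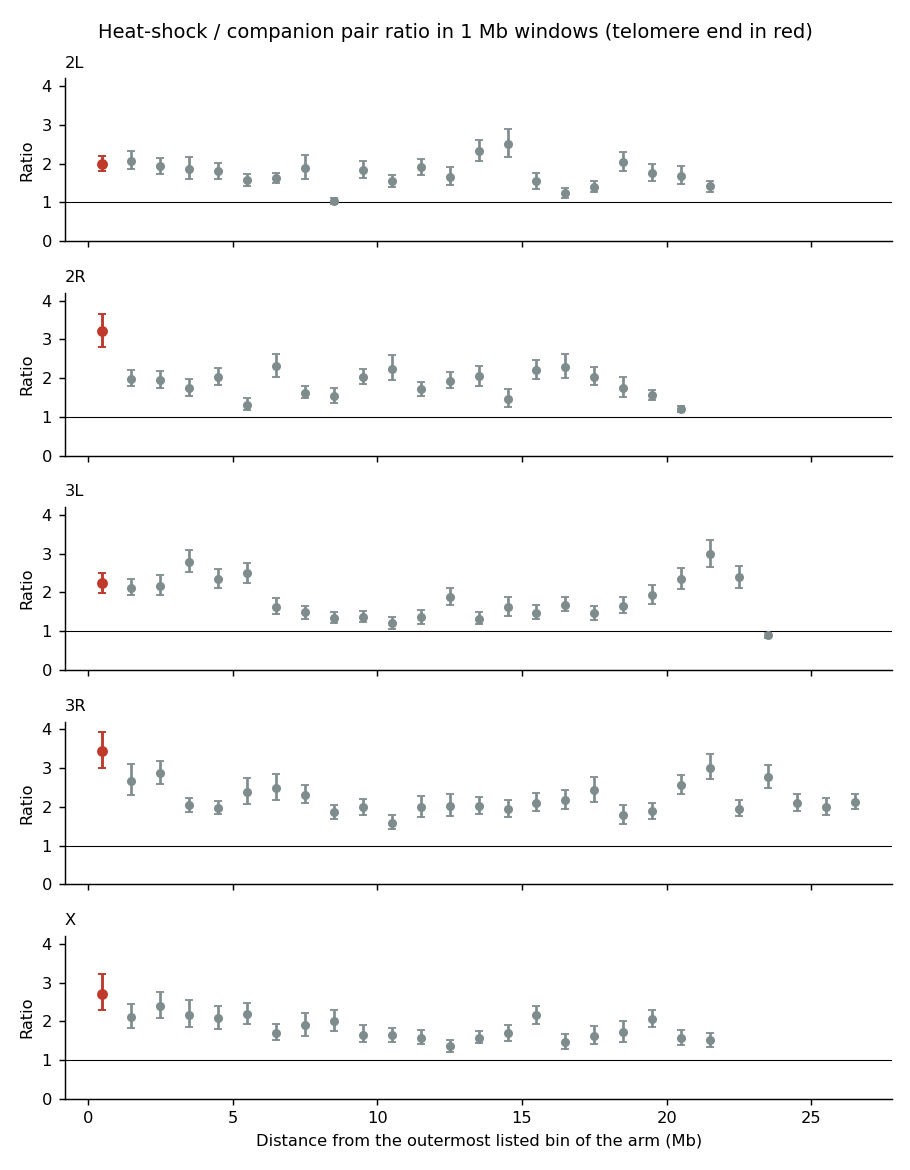
Ratio of heat-shock to companion pairs (y axis) that touch each full 1 Mb window, by distance of the window from the outermost listed bin (x axis, Mb), 1 panel per arm; bars are 95% counting intervals and the telomere-end window is red. The red point is the highest of its arm on 2R (3.20), 3R (3.44) and X (2.71) and lies among the others on 2L (2.0) and 3L (2.24).

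The excess of telomere-end pairs depended on distance. Up to 10 Mb they were 2.86 (2.70 to 3.03) times as many in the heat-shock list, with 4327 against 1513 in the companion list. Over 10 Mb the lists held nearly equal numbers, 310 heat-shock and 311 companion pairs, a ratio of 1.0 (0.85 to 1.17). Other pairs over 10 Mb had a ratio of 1.29 (1.21 to 1.37), and the odds ratio of telomere ends over the rest in that band was 0.77 (0.65 to 0.92). The arms differed, with 0.44 (0.31 to 0.63) on 2L and 0.42 (0.28 to 0.64) on 3L. On 2R it was 1.10 (0.70 to 1.72), on 3R 1.16 (0.83 to 1.62) and on X 1.84 (0.94 to 3.64). Beyond 15 Mb the heat-shock list held fewer telomere-end pairs, 120 against 175, a ratio of 0.69 (0.54 to 0.87), against 1.09 (0.97 to 1.22) for other pairs. By arm only 3L had an interval below 1, with 18 heat-shock and 43 companion pairs. Of the 175 companion pairs 15 were on 3L 400001-410000 and 13 on 3R 1190001-1200000, both with 0 such heat-shock pairs. In the other direction 3R 27780001-27790000 had 17 heat-shock and 3 companion pairs over 10 Mb. In lists of equal length the ratio over 10 Mb was 0.44 and among the strongest 50% of each list 0.62. Other pairs over 10 Mb were not counted under these settings, so these values cannot be set against the rest of the arms.

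With the arms pooled, each shorter band lay above the rest of the arms. Over 1 to 5 Mb telomere ends had 1979 heat-shock and 542 companion pairs, a ratio of 3.65 (3.32 to 4.02), against 2.22 (2.17 to 2.27) for other pairs. Over 5 to 10 Mb there were 788 heat-shock and 320 companion pairs, a ratio of 2.46 (2.16 to 2.81), against 1.93 (1.85 to 2.01). Pooled over arms, the odds ratio was highest between 50 kb and 1 Mb. At 50 to 200 kb their odds ratio over the rest was 1.92 (1.60 to 2.30) and at 200 kb to 1 Mb it was 1.85 (1.64 to 2.08). At 1 to 5 Mb it was 1.64 (1.49 to 1.82), and at 5 to 10 Mb it was 1.28 (1.11 to 1.47). Up to 50 kb only 123 heat-shock and 44 companion members were listed, and the odds ratio of 1.51 (1.04 to 2.24) had a correspondingly wide interval. Single arms differed from this order. On 2R the odds ratio was highest at 1 to 5 Mb, 2.90 (2.21 to 3.84), and on X it was 1.94 (1.34 to 2.88) at 1 to 5 Mb and 1.99 (1.27 to 3.17) at 5 to 10 Mb. On 2L the telomere end lay below the rest of the arm at 5 to 10 Mb, with an odds ratio of 0.61 (0.47 to 0.79), and 3L stood at 1.01 (0.72 to 1.42).

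**Figure D3:**
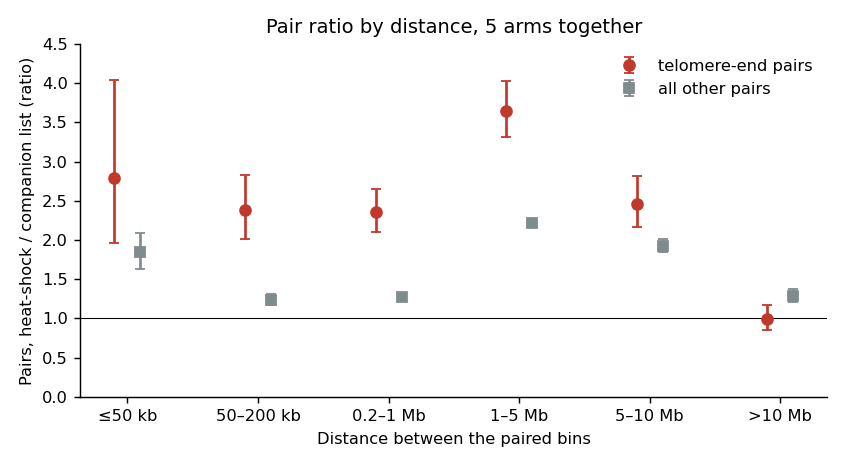
Ratio of heat-shock to companion pairs (y axis) by distance between the paired bins (x axis) for telomere-end pairs (circles) and all other pairs (squares) of the 5 arms together; bars are 95% counting intervals. Telomere-end pairs lie above the others in every band up to 10 Mb, with a peak of 3.65 over 1 to 5 Mb, and below them over 10 Mb, at 1.0 against 1.29.

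The median distance of telomere-end pairs had overlapping intervals in the lists, while other pairs spanned more in the heat-shock list. The telomere-end median was 1.83 Mb (1.73 to 1.93 Mb) for heat-shock pairs and 2.005 Mb (1.75 to 2.34 Mb) for companion pairs. The overlap was lost with windows of 0.5 Mb, at 2.16 Mb (1.97 to 2.37 Mb) for heat-shock and 2.93 Mb (2.64 to 3.68 Mb) for companion pairs. It was also lost without the largest-gain bin of each arm, at 1.96 Mb (1.86 to 2.09 Mb) for heat-shock and 2.44 Mb (2.10 to 2.73 Mb) for companion pairs. Other pairs had medians of 1.60 Mb (1.58 to 1.62 Mb) for heat-shock and 1.13 Mb (1.11 to 1.16 Mb) for companion pairs. Arm 2L departed most from the pattern of the other pairs. Its telomere-end median was 1.595 Mb (1.41 to 1.70 Mb) for heat-shock pairs and 2.725 Mb (2.33 to 3.58 Mb) for companion pairs. Its other pairs had 1.73 Mb (1.66 to 1.78 Mb) for heat-shock and 1.33 Mb (1.25 to 1.42 Mb) for companion pairs. Without 2L the medians over the remaining arms stood the other way, at 1.96 Mb for heat-shock and 1.71 Mb for companion pairs. Pairs over 5 Mb made up 19.6% of heat-shock and 37.5% of companion members on 2L. On 2R the order was that of the other pairs, with 2.81 Mb (2.40 to 3.18 Mb) for heat-shock and 1.65 Mb (1.0 to 2.28 Mb) for companion pairs. Intervals of the lists overlapped on 3L, 3R and X.

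Arms also differed in which long bands were larger. On 2R the ratio was 6.23 (4.79 to 8.23) at 1 to 5 Mb, with 405 heat-shock and 65 companion pairs, and 4.70 (3.40 to 6.60) at 5 to 10 Mb. On 3R it was 4.52 (3.58 to 5.75) and 4.38 (3.21 to 6.08) in these bands. On X it was 4.44 (3.08 to 6.57) and 2.83 (1.85 to 4.45). The left arms of the autosomes had lower ratios. On 2L it stood at 2.84 (2.41 to 3.36) from 1 to 5 Mb, at 1.28 (1.01 to 1.62) from 5 to 10 Mb, and beyond 10 Mb it was 0.74 (0.54 to 1.01). In the same bands 3L had 2.92 (2.43 to 3.52), 1.60 (1.15 to 2.23) and 0.59 (0.39 to 0.87). Over 10 Mb only 3R had an interval above 1, with 107 heat-shock and 68 companion pairs, a ratio of 1.57 (1.15 to 2.17).

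Most members left the telomere end. Pairs joining it to the rest of its arm numbered 3776 (heat-shock) and 1493 (companion), a ratio of 2.53 (2.38 to 2.69), and pairs with both bins inside numbered 861 (heat-shock) and 331 (companion), a ratio of 2.60 (2.29 to 2.96). Inside pairs made up nearly the same share of members in both lists, 18.6% (17.5 to 19.7%) for heat-shock and 18.1% (16.4 to 20.0%) for companion pairs. Arm 3L was the exception, with 160 heat-shock and 38 companion pairs inside, a ratio of 4.21 (2.94 to 6.17) against 2.05 (1.82 to 2.31) for its joining pairs. Inside pairs spanned a median of 0.16 Mb in both lists. In lists of equal length the ratio was 1.46 for joining and 1.59 for inside pairs.

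Joining pairs thinned out along the arm in both lists. From 1 to 2 Mb from the tip there were 1075 heat-shock and 458 companion pairs, from 2 to 3 Mb 743 heat-shock and 205 companion pairs, and from 3 to 4 Mb 381 heat-shock and 81 companion pairs. From 10 to 11 Mb from the tip the lists came close, with 70 heat-shock and 56 companion pairs. The heat-shock pairs reached 1809 different bins of the rest of the arms, 17.0% of those used there in either list, and the companion pairs reached 942, or 8.84%.

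**Figure D4:**
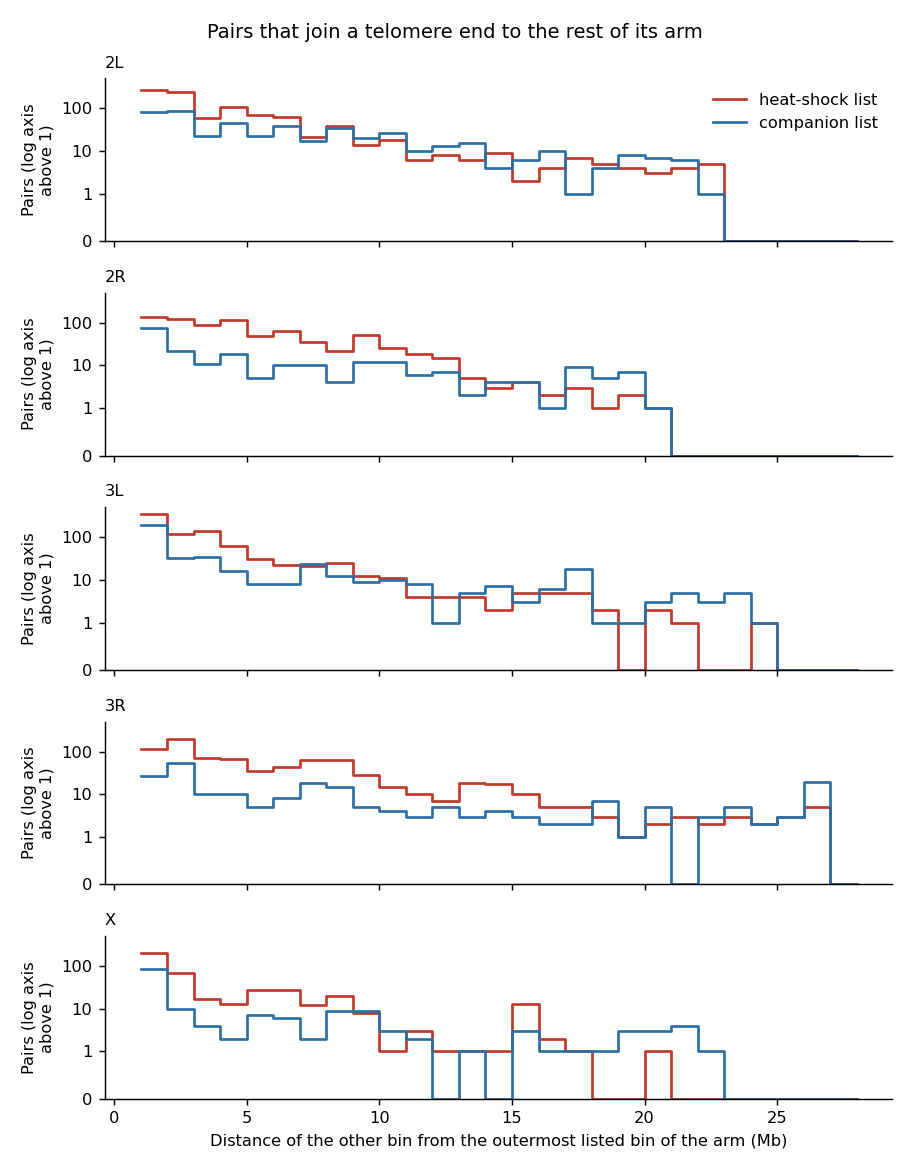
Number of pairs joining the telomere end to the rest of the arm (y axis, log scale above 1) by the distance of the other bin from the outermost listed bin (x axis, Mb), 1 panel per arm, for the heat-shock list (red) and the companion list (blue). The red line lies above the blue one near the tip, 1075 against 458 pairs from 1 to 2 Mb over all arms, and both lists hold few pairs per Mb beyond 10 Mb, 70 against 56 from 10 to 11 Mb.

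Very few pairs bridged an arm from end to end. Pairs joining the telomere-end 1 Mb to the 1 Mb at the centromere end numbered 7 (heat-shock) and 5 (companion), and none was in both. Of the heat-shock pairs 5 lay on 2L, 1 on 2R and 1 on 3L. Of the companion pairs 3 lay on X, 1 on 2L and 1 on 3L. Their scores lay between -2.12 and -2.85 for heat-shock pairs, against a median of -2.60 over that whole list, and between -2.35 and -6.20 for companion pairs, against a median of -2.59. The 3L pairs had the same bin at the centromere end, 3L 24160001-24170000, its heat-shock partner being 3L 1020001-1030000 and its companion partner 3L 920001-930000.

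Single bins carried a good part of the difference. A bin was called higher when it had at least 2 times as many and at least 10 more partners in the heat-shock list, partners being the different bins it is paired with. Over all arms 9.48% of 11120 bins were called higher and 0.746% lower by the converse rule. At the telomere ends 86 of 458 used bins were called higher, which is 18.8%, and 1 was called lower. The share was 26.9% on 2L against 6.93% of the other bins of that arm, and 24% on 3R against 12.5%. It was 17.2% on 3L against 9.98%, 15.6% on 2R against 7.27% and 9.3% on X against 7.51%. By this rule X stood nearest to the rest of its arm. The rule asks for at least 10 more partners, which bins with few partners can rarely meet. The median telomere-end bin had 13 heat-shock and 6 companion partners on 2L, and 4.5 heat-shock and 2 companion partners on X. Other bins of 2L had medians of 5 heat-shock and 3 companion partners. By odds ratio of pairs the order was the other way, with 1.28 on 2L and 1.62 on X. More partners in the heat-shock list, by any margin, were found for 84.9% of telomere-end bins against 70.8% of all bins. The median telomere-end bin had 7 heat-shock and 3 companion partners, and the median of all bins was 6 heat-shock and 3 companion partners.

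The bins with the largest gains were described without a test, since they were picked by the gain. The 2 largest on each arm, 10 bins in all, touched 1098 heat-shock and 240 companion members and held 30.5% of the difference between the lists. The 20 largest on each arm held 74.1% of it. Without the 10 bins the ratio of members was 2.23 (2.11 to 2.37) and without the 100 bins it was 1.71 (1.58 to 1.84). The bins were picked by their gain, so a lower ratio without them tends to follow from the choice. No bins were left out of the other pairs in this way, so their ratio cannot be set against these values. Concentration was strongest on 2R, where 4 bins held 50% of the summed gain, against 10 on 3L, 11 on X, 12 on 3R and 16 on 2L. Without its 2 largest gains the ratio on 2R was 2.59 (2.21 to 3.04). In lists of equal length, where the difference between the lists is smaller, the 2 bins per arm chosen there held 72.2% of it.

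The richest telomere-end bin in both lists was 2R 20500001-20510000, 630 kb from the outermost listed bin. It had 249 heat-shock partners at a median distance of 1.90 Mb and 65 companion partners at a median of 0.74 Mb, and 47 partners were in both lists. Toward the centromere its heat-shock partners were 51.6% of the bins used 1 to 2 Mb away, 31.9% of those 2 to 3 Mb away and 8.09% of those 5 to 10 Mb away, against 10.8%, 6.38% and 0.638% in the companion list. On one side the next bin had 2 heat-shock partners and 1 companion partner. On the other side the next bin was used in neither list, and the one after it, 2R 20480001-20490000, had 77 heat-shock and 17 companion partners. The second largest gain on this arm, at 2R 20210001-20220000, came from 118 partners in the heat-shock list, as far as 11.84 Mb away, and 8 in the companion list, none over 0.85 Mb away.

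On 3R the largest gain was at 3R 27460001-27470000, with 132 heat-shock and 17 companion partners. On one side the next bin had 2 heat-shock and 0 companion partners, and on the other side the next bin was used in neither list. The second, 3R 27230001-27240000, had 70 heat-shock and 15 companion partners and held the strongest telomere-end pair of the heat-shock list. The bin next to it, 3R 27240001-27250000, had 36 heat-shock and 12 companion partners.

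Arm 3L had its largest gains close together. The bin 3L 850001-860000 had 119 heat-shock and 17 companion partners, and 3L 870001-880000 had 91 heat-shock and 25 companion partners. The heat-shock partners of the first reached 8.49 Mb, and its companion partners all lay within 0.78 Mb. On 2L the bin 2L 860001-870000 had 161 heat-shock and 48 companion partners, and 2L 540001-550000 had 65 heat-shock and 25 companion partners. The X bins had the shortest heat-shock reach of the bins named for gains. X 970001-980000 had 53 heat-shock partners, the farthest 3.99 Mb away, and 9 companion partners within 0.75 Mb. X 770001-780000 had 41 heat-shock partners within 3.61 Mb and 12 companion partners within 0.84 Mb.

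**Figure D5:**
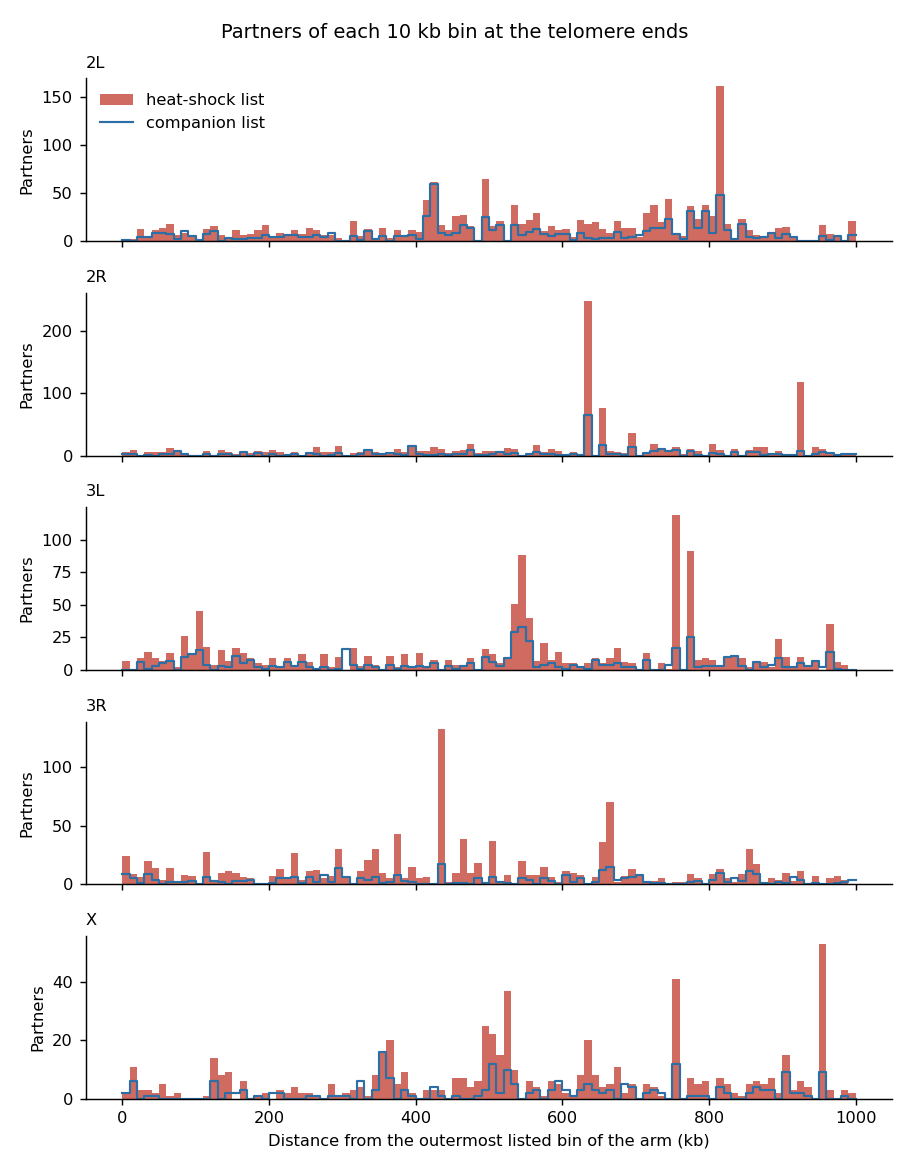
Partners of each 10 kb bin (y axis) by distance from the outermost listed bin of the arm (x axis, kb), 1 panel per arm with its own y scale, as bars for the heat-shock list and a line for the companion list. Single tall bars stand out at 630 kb on 2R (249 partners against 65), 810 kb on 2L (161 against 48) and 430 kb on 3R (132 against 17), while most bins are low in both lists.

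Losses of partners were small by comparison. The one bin called lower was 3L 400001-410000, with 0 heat-shock and 16 companion partners. All 16 lay over 5 Mb away, and 13 of them fell within 3L 17130001-17420000. With that exception the largest losses were of 4 partners on 3R, 3 on X, 3 on 3L (3L 840001-850000), 2 on 2L and 1 on 2R. The bin 3R 26900001-26910000, with 0 heat-shock and 4 companion partners, was again paired at long range only, at a median of 22.82 Mb.

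With the arms pooled, the excess was spread over the outermost 1 Mb and had no peak at the tip itself. Counting partners in steps of 100 kb from the outermost listed bin, the ratio over 5 arms was 2.38 (1.97 to 2.88) in the outermost step and 3.07 (2.68 to 3.54) at 600 to 700 kb, which holds the richest 2R bin. It was 3.23 (2.66 to 3.94) in the last step inside the window and 2.70 (2.22 to 3.29) in the first step outside it. The highest single step was 400 to 500 kb on 3R, with 224 heat-shock and 25 companion partners, a ratio of 8.96 (5.91 to 14.1), and 1 bin held 115 of the difference. Pooled over arms the lowest step was 2.23 (1.92 to 2.59), at 800 to 900 kb, against 1.70 for all other pairs. All 50 steps of single arms had a ratio over 1, the lowest being 1.54 (1.02 to 2.34) at 300 to 400 kb on 2R. Not every step lay above the other pairs of its arm. That 2R step and the one at 700 to 800 kb (1.57) lay below 1.59. At 800 to 900 kb 3L had 1.57 against 1.59, and 3R had 2.02 against 2.04.

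Bins rich in partners held a larger share of joining pairs in the heat-shock list than in the companion list, and the same was true of other pairs. In each list the 112 bins richest in partners, its top 1%, were the partner in the rest of the arm for 12.2% of heat-shock and 4.62% of companion joining pairs. A telomere-end bin of that kind was the starting point of 14.8% of heat-shock and 8.37% of companion joining pairs, although on 2L the order was turned, with 12.0% of heat-shock and 17.0% of companion pairs. At least 1 such bin was in 27.0% of heat-shock and 12.7% of companion joining pairs, against 27.3% of heat-shock and 18.1% of companion pairs away from the telomere ends. The ranking counts the joining pairs too, so these shares are a description only. Without any pair on such a bin, in whichever list it ranked, there remained 2612 heat-shock and 1231 companion joining pairs, a ratio of 2.12 (1.98 to 2.27).

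The bins of the rest of the arm with most heat-shock partners at the telomere end lay within 3.55 Mb of the tip. The bin 3L 1290001-1300000 had 60 heat-shock and 27 companion partners at the telomere end, the most of any bin outside the windows in the heat-shock list. The bin 2L 2160001-2170000 had 37 heat-shock and 6 companion partners there, and X 1200001-1210000 had 33 heat-shock and 14 companion ones. On the right arms the companion list had few of these pairs. There were 24 heat-shock and 1 companion partner for 3R 25510001-25520000 and 21 heat-shock and 0 companion partners for 2R 17580001-17590000. The bin 3R 25870001-25880000 had 21 heat-shock and 5 companion ones. These bins were rich in the heat-shock list as a whole, with between 56 and 217 partners. In blocks of 100 kb by 100 kb, the largest gain on 2L joined 400 to 500 kb from the tip to 2.1 to 2.2 Mb from the tip, with 23 heat-shock pairs over 8 telomere-end bins and 3 companion pairs.

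Some bins far from the tips had several telomere-end partners lying close together. On 3R the bin 3R 1190001-1200000, 26.7 Mb from the outermost bin, had 0 heat-shock and 13 companion partners at the telomere end, the companion ones all within 3R 27620001-27870000. On X the order was reversed for X 15950001-15960000, with 7 heat-shock partners at the telomere end, all within X 830001-930000, and 3 companion ones. Over the whole arm this X bin had 16 heat-shock and 6 companion partners, so its difference was not particular to the telomere end. The telomere-end bin with most partners over 10 Mb away in the heat-shock list was 3R 27780001-27790000, with 17 against 3 in the companion list. In the companion list it was 2L 470001-480000, with 6 heat-shock and 17 companion partners that far away.

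Sharing between the lists was higher below 1 Mb than above it. Of the companion list's telomere-end pairs, 665 had the same pair among the heat-shock pairs, or 36.5% (34.2 to 38.7%) of 1824, against 32.2% of all companion pairs. Of heat-shock members they were 14.3% (13.3 to 15.4%), against 18.4% of all heat-shock pairs. Over 50 to 200 kb 87.7% (82.2 to 92.0%) of companion members were shared, against 46.7% (44.6 to 48.8%) of other companion pairs at that distance. Seen from the heat-shock list, 36.9% (32.5 to 41.4%) of members and 37.6% (35.8 to 39.5%) of other pairs were shared in that band. At 200 kb to 1 Mb it was 26.5% (23.8 to 29.4%) of heat-shock members, against 34.8% (34.1 to 35.5%) of other heat-shock pairs. Over 10 Mb 7.40% (4.75 to 10.9%) of companion members were shared, against 12.2% (10.7 to 13.8%) of other companion pairs. Of the 310 heat-shock and 311 companion members over 10 Mb, 23 pairs were in both lists. Counting pairs whose bins both lay within 2 bins of each other, 58.2% of companion members were shared.

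Scores of -10 or stronger were rarer among heat-shock than among companion pairs, at the telomere ends and elsewhere. Whether both lists use 1 scale is unknown, so this difference cannot be read as one in strength of contact. The median score of members was -2.62 for heat-shock and -2.59 for companion pairs. Scores of -10 or stronger were held by 19 heat-shock members, 0.410% (0.247 to 0.639%), and by 37 companion members, 2.03% (1.43 to 2.79%). Among other pairs the shares were 0.671% (heat-shock) and 2.22% (companion). Of the 19 heat-shock pairs 6 spanned over 10 Mb and 13 were also in the companion list. Of the 37 companion pairs 24 spanned over 10 Mb and 12 were also in the heat-shock list. The bin 3L 400001-410000 held 11 of the 37, 10 of them over 10 Mb, and without it 14 of 26 spanned over 10 Mb.

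The strongest joining pair of the heat-shock list was on 3R, between 3R 4030001-4040000 and 3R 27230001-27240000, 23.2 Mb apart, with scores of -77.0 (heat-shock) and -9.09 (companion). On 2L it was 2L 810001-820000 with 2L 3390001-3400000, at -34.3 (heat-shock) and -5.73 (companion), and on 2R it was 2R 5470001-5480000 with 2R 20240001-20250000, 14.77 Mb apart, at -30.8 (heat-shock) and -18.3 (companion). On 3L it was the shorter pair 3L 640001-650000 with 3L 1290001-1300000, at -17.2 (heat-shock) and -9.27 (companion). On X it was X 790001-800000 with X 5680001-5690000, at -9.53, which was not in the companion list. Of the 19 strong heat-shock pairs 5 joined 3L bins starting 30 to 140 kb from the outermost listed bin to 3L 3150001-3160000 or 3L 3210001-3220000.

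In the companion list the strongest joining pairs were other ones on all 5 arms. On 3L the pair 3L 1050001-1060000 with 3L 19810001-19820000 had a score of -85.5 and was not in the heat-shock list. On X the pair X 580001-590000 with X 1590001-1600000 scored -8.50 (heat-shock) and -46.6 (companion). On 2R the pair 2R 2130001-2140000 with 2R 20400001-20410000, 18.27 Mb apart, scored -3.10 (heat-shock) and -44.0 (companion). The strongest on 3R, 3R 1190001-1200000 with 3R 27720001-27730000, at -26.2, and the strongest on 2L, 2L 750001-760000 with 2L 13760001-13770000, at -16.0, were not in the heat-shock list.

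Inside the telomere ends the strongest pairs were weaker than the strongest joining ones, with fewer inside pairs to pick from. Median scores were -2.65 (inside) and -2.61 (joining) for heat-shock pairs. For companion pairs they were -2.49 (inside) and -2.61 (joining). In the heat-shock list the strongest inside pairs ran from -10.02 on 3L, between 3L 870001-880000 and 3L 1020001-1030000, to -6.78 on X. The strongest inside pair of 2R was the same in both lists, 2R 20500001-20510000 with 2R 20540001-20550000, at -7.84 (heat-shock) and -9.18 (companion). It involved the richest telomere-end bin.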

How the data were processed

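The authors deposited 2 lists of pairs of 10 kb bins within arms, each line with a score as deposited by the authors. The score has the form of a log p-value, but its base, test, background model, genome build and any pooling are not stated in the labels or headers. The submitters' processing notes list Bowtie 0.12.7. The descriptions of both heat-shock Hi-C libraries name 1 list, and no label used here names the other.

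From the lists, numbers of pairs, ratios (exact conditional binomial intervals), exact conditional odds ratios, Mantel-Haenszel odds ratios over arm and 6 distance bands, exact Clopper-Pearson shares and medians with order-statistic intervals were computed with Python 3.11.15, numpy 2.4.6, pandas 2.3.3, scipy 1.17.1 and matplotlib 3.10.9. Functions were tested on simulated lists. Distance is between bin starts, and a shared pair has both bins equal.

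The members, bins and alternatives were chosen with earlier results of these data known. Named regions were, per arm, the 2 telomere-end bins that gained most partners and the 1 that lost most, the strongest joining and inside pair and the farthest pair in each list, and over all arms the richest bin of each list. The blocks, the bins beside named bins, the bins in the rest of the arms, the bins behind pairs over 10 Mb and the 3L pairs near the tip were chosen after their values were seen, as was the split at 10 Mb. Fits are over whole lists. No sequence is printed, since no genome of the lists' build was used here.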

Additional observations from a re-analysis of the deposited data

How the results depend on the processing

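The ratios of touching, joining and inside pairs and the Mantel-Haenszel odds ratio stayed above 1 under all alternatives run. The ratio over 10 Mb, whose interval includes 1, ranged from 0.44 to 1.12. Of 110 alternative values over all arms 56 lay inside the reported value's interval and 54 outside it. Of 35 values for single arms, not counting those that leave out another arm, 24 lay inside and 11 outside. The lowest and highest arm ratios were 1.13 and 2.11 for 2L, 1.95 and 3.51 for 2R, 1.37 and 2.28 for 3L, 1.92 and 4.13 for 3R, and 1.54 and 2.93 for X. The cause was not tested for these moves, except that equal length shortens the heat-shock list only.

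In lists of equal length the ratio was 1.48 for all telomere-end pairs, 1.46 for joining pairs, 1.59 for inside pairs and 0.44 over 10 Mb, the Mantel-Haenszel odds ratio 1.65, the heat-shock median 1.70 Mb, sharing 27.3% and the part of the difference on 2 bins per arm 72.2%. In the strongest 50% of each list the inside ratio was 3.02, the ratio over 10 Mb 0.62, the odds ratio 1.66, the heat-shock median 1.715 Mb and the part on 2 bins per arm 43.7%. With windows of 0.5 Mb the joining ratio was 2.33, the inside ratio 3.47, the odds ratio 1.41, the medians 2.16 Mb (heat-shock) and 2.93 Mb (companion), sharing 27.2% and the part on 2 bins 26.9%. With windows of 2 Mb the ratios were 2.33 for all and 2.28 for joining pairs, the odds ratio 1.43 and the part on 2 bins 20.9%. Without top 1% bins the ratios were 2.17 for all and 2.12 for joining pairs and sharing was 32.0%. Without the bin of largest gain on each arm the ratios were 2.35 and 2.33, the odds ratio 1.42, the medians 1.96 Mb (heat-shock) and 2.44 Mb (companion) and sharing 32.7%. Overlap within 1 bin gave 50.3% sharing and within 2 bins 58.2%, and bins of 50 kb put 39.5% of the difference on 2 bins per arm.

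Leaving out 2L gave ratios of 2.82 for all, 2.78 for joining and 3.03 for inside pairs, an odds ratio of 1.68 and medians of 1.96 Mb (heat-shock) and 1.71 Mb (companion), which turned the order of the medians round, as windows of 2 Mb did (1.83 Mb heat-shock, 1.80 Mb companion). Leaving out 2R gave a joining ratio of 2.38, an odds ratio of 1.45, a heat-shock median of 1.68 Mb and 26.0% on 2 bins. Leaving out 3L gave a joining ratio of 2.71 and a heat-shock median of 1.935 Mb. Leaving out 3R gave ratios of 2.38 for all, 2.34 for joining pairs and 0.84 over 10 Mb, a heat-shock median of 1.66 Mb and 32.3% on 2 bins. Leaving out X gave a heat-shock median of 1.95 Mb. The alternatives for pairs over 10 Mb, among them leaving out the bins richest in far pairs, were chosen after the data were seen. No replicate could be left out, since each list exists once. No paired analysis was possible because the lists carry no replicates. Depth is unknown, so unlisted pairs cannot be read as free of contact.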
